A study of Mus musculus with 4 samples.

Results

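CpG-poor unmethylated windows were stretches of 200 bp of the mouse sperm genome that held few CG sites, carried almost no DNA methylation and lay far from any CG-dense window. A window entered the set when 3 to 5 CG sites were listed in it, when its methylation level was at most 10% and when no window with 10 or more listed CG sites lay within 2 kb. The rule found 6738 such windows among 62494 CpG-poor windows away from dense windows (10.8%), and among 229337 measured autosomal windows in all. A window counted as measured when at least 3 of its CG sites had 10 or more reads in every library. Its methylation level in a library was the mean, over those sites, of the percent of reads that were methylated, and its level without further mention was the mean of the 4 libraries. The tables do not name their columns, and the count taken as methylated is the one that leaves CG-dense windows unmethylated. The measured level itself chose the windows, so the low levels below describe the set and are not a finding about it. Shares of windows hold for measured windows alone and not for the whole genome. Of 21342492 CG sites listed on chromosomes 1 to 19, X and Y, 1934865 had 10 or more reads in every library. No read in any library was found at 54.1% of the listed sites.

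In mammals, methyl groups are carried by cytosines that are followed by guanine, and in sperm most such sites in CG-poor DNA are methylated. The common exception is the CpG island, a CG-dense region, often at a promoter, that is kept free of methylation. CG-poor DNA that is free of methylation away from an island is known from other cell types at distal regulatory elements and at sites bound by proteins that keep methylation low.

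The libraries came from spermatozoa of wild-type C57BL/6 male mice, 11 to 12 weeks old in the study. For both fractions the tissue was incubated in M2 medium for 1 h. Swim-up sperm were the cells then collected from the upper medium. Histone replacement-completed sperm (HRCS) were dense sperm heads, isolated from total sperm of cauda epididymis and vas deferens by mild sonication and centrifugation in 82% Percoll. Targeted bisulfite sequencing (TGBS), which reads methylation at captured regions, was performed on 2 libraries per fraction. The labels did not say how many animals gave each library or whether replicates came from different animals, so the p-values measure the spread between these libraries, which may be technical. HRCS was purified to leave out sperm in which protamines had not yet taken the place of histones, and the comparison asks whether methylation differs from that of swim-up sperm. The libraries held between 71379227 and 89403347 calls, a call being 1 read at 1 CG site. The minus strand carried 88.7% to 89.6% of the calls, depending on the library.

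The CpG-poor windows away from dense windows fell mostly at the extremes of methylation. A level over 75% was measured in 46580 of them (74.5%), and these windows served for comparison. Levels over 10% and up to 25% were found in 2742 windows (4.39%), levels up to 50% in 3005 (4.81%) and levels up to 75% in 3429 (5.49%). The low windows were therefore the second most frequent class, although the counts in the middle classes show that a gradual tail joined both ends. Among the 43809 CpG-poor windows that had a dense window within 2 kb, 44.6% had a level of at most 10% and 30.8% a level over 75%.

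**Figure D1:**
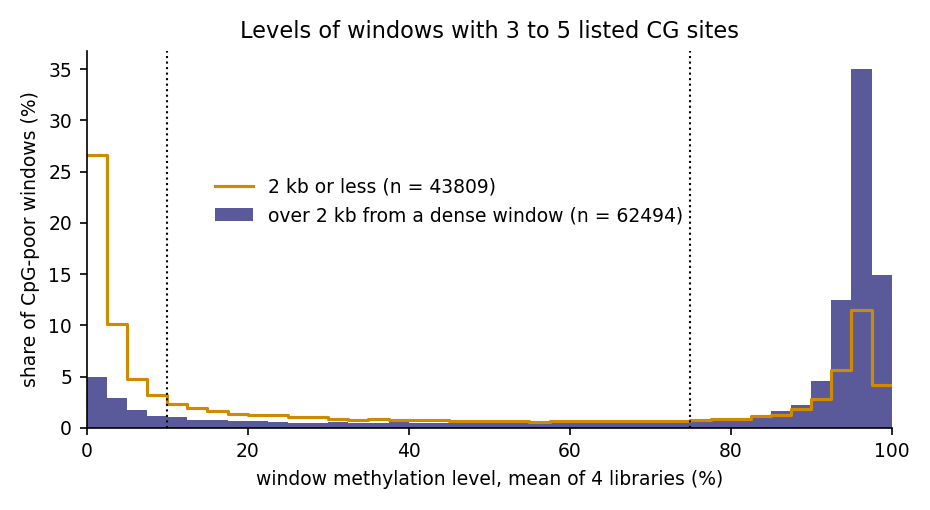
Share of CpG-poor windows (y axis, %) by methylation level in steps of 2.5 percentage points (x axis, %), for windows over 2 kb from a dense window (filled bars, n = 62494) and for those with a dense window within 2 kb (line, n = 43809). Dotted lines mark 10% and 75%, and both distributions have 1 peak at each end, with the low peak smaller away from dense windows.

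The limit of 10% cut through this tail. The 3 windows just inside it were chr5:137256001-137256200 with a level of 9.9963%, chr7:31221601-31221800 with 9.9940% and chr9:45220401-45220600 with 9.9938%, all on mm9. The 3 just outside were chr12:86913001-86913200 with 10.0005%, chr15:97421401-97421600 with 10.0173% and chr11:8534801-8535000 with 10.025%. Single libraries of these windows lay on both sides of the limit. At chr12:86913001, for instance, the levels were 5.89% and 17.1% in swim-up sperm against 7.24% and 9.79% in HRCS.

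Most of the chosen windows were far below the limit. Their median level was 2.74%, with quartiles of 1.48% and 5.25%. A level of at most 5% was measured in 4919 windows, at most 2% in 2447 and at most 1% in 932. The windows with fewer CG sites were slightly higher, with mean levels of 3.82% for 3 listed sites, 3.48% for 4 and 3.42% for 5.

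Low windows of other kinds lay lower still. CpG-poor windows with a dense window within 2 kb and a level of at most 10% numbered 19544 and had a median of 1.97%. Windows of 6 to 9 listed CG sites away from dense windows that met the same limit numbered 7010 and had a median of 2.08%. Dense windows that met it numbered 58397 and had a median of 1.09%, although the reading of the columns rests on dense windows being low. All of these sets were cut at the same 10%, and their levels are a description with no test.

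A mean of at most 10% over so few sites leaves little room for a methylated site, so the site levels only describe what the rule chose. The 6738 windows held 25952 CG sites with 10 or more reads in every library, and 93.4% of these sites had a level of at most 10%. No methylated read was seen in any library at 4125 sites (15.9%), which had a median of 91 reads over the 4 libraries. A level over 25% was found at 20 sites. In 5309 windows (78.8%) every such site was at or below 10%.

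In 60 windows there was no methylated call in any library. The window of this kind with most calls was chr8:83016801-83017000, with 136 and 109 calls in swim-up sperm against 109 and 141 in HRCS, and 0 of 495 calls allows a level of up to 0.606%. It was followed by chr7:121164401-121164600 with 0 of 493 calls and chr14:54424001-54424200 with 0 of 461. These limits cover counting error alone, since copies of a molecule made by PCR and several sites on 1 read are not independent.

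The libraries gave nearly the same picture. The mean level over the 6738 windows was 3.64% and 3.20% in swim-up sperm against 3.75% and 3.57% in HRCS. A level of at most 10% was found in 94.2% and 95.4% of the windows in swim-up sperm and in 93.7% and 94.7% in HRCS, and 5559 windows (82.5%) met the limit in all 4 libraries. Swim-up replicate 2, which had the fewest calls, had a level of exactly 0 in 24.3% of the windows, against 13.8% to 15.7% in the other libraries.

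Because each library took part in the choice, the rule was also applied to 3 libraries and the windows were read in the fourth. Of the windows chosen without it, 92.3% had a level of at most 10% in swim-up replicate 1, 93.6% in swim-up replicate 2, 91.5% in HRCS replicate 1 and 92.8% in HRCS replicate 2. None of these windows exceeded 75% in the library left out, and between 2 and 10 exceeded 25%. The read-out library was still 1 of those that had to have 10 reads per site.

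The choice also held from one fraction to the other. Of 6845 windows chosen on both swim-up libraries, 90.5% were at or below 10% in HRCS replicate 1 and 91.3% in HRCS replicate 2. Of 6692 windows chosen on both HRCS libraries, 92.4% and 93.4% were at or below 10% in the swim-up libraries. No window passed from at most 10% in one fraction to over 75% in a library of the other.

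CG sites of the same windows with fewer than 10 reads in some library entered no window level, although they counted among the listed sites. There were 1987 such sites in the low windows, and their methylated calls made up 5.38% and 4.66% of all calls in swim-up sperm against 5.38% and 5.13% in HRCS. At the 10461 such sites of the windows over 75% the values were 94.4% and 94.4% in swim-up sperm against 93.7% and 93.8% in HRCS. The groups of sites were far apart in every library. The difference was -88.9 ± 0.586 percentage points (SD, n = 4 libraries, two-sided exact sign-flip test, p = 0.13, the smallest value that 4 libraries allow). These sites lie within 200 bp of the sites that chose the window, and 1 read may span both. They are therefore not independent of the choice, and the test gives no separate support for it.

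The low windows were read about as deeply as the others. The median number of reads per CG site was 25.8 and 22.7 in swim-up sperm against 31.0 and 27.7 in HRCS. In the windows over 75% it was 25 and 22.7 in swim-up sperm and 29.0 and 26.0 in those of HRCS. The mean difference was 1.12 ± 0.900 reads (SD, n = 4 libraries, two-sided exact sign-flip test, p = 0.25), and ranged from 0 to 2 reads over the libraries. The minus strand held between 91.1% and 91.6% of the calls of the low windows and between 93.4% and 93.6% of those of the windows over 75%.

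The 5 windows with the highest depth in their shallowest library included chr16:33002001-33002200, with 1565 and 1508 reads per site in swim-up sperm against 1429 and 1240 in HRCS. Its level was 11.6% and 7.39% in swim-up sperm against 8.45% and 7.65% in HRCS. With the calls of its sites pooled its level was 11.4%, over the limit of 10%. Of the 4 others, 3 lay on chromosome 4, at positions 146823401, 146927201 and 147183601, and had between 194 and 351 reads per site, and the last was chr10:129979601-129979800. These depths were far above the upper quartiles, which were at most 40.3 reads per site in any library.

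The share of low windows fell steeply with distance close to a dense window. Among all CpG-poor windows, 78.7% were at or below 10% in the window next to a dense one, 64.6% at 400 bp, 42.1% at 600 bp and 21.2% at 800 to 1000 bp. The share reached 8.91% at 1200 to 2000 bp and 8.06% (95% Wilson interval 7.64 to 8.51) at 2200 to 5000 bp. It then rose to 10.2% at 5200 to 10000 bp, 11.7% at 10200 to 20000 bp, 12.1% at 20200 to 50000 bp and 14.5% (13.5 to 15.5) beyond. Each of the 4 libraries gave the same order from 2200 bp outward. Among measured windows the share thus did not keep falling beyond 2 kb. Adjacent windows are not independent, and the intervals treat them as if they were.

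The 5 chosen windows farthest from a dense window lay between 246000 and 396200 bp from it. The farthest, chr1:196049001-196049200, had levels of 2.08% and 3.704% in swim-up sperm against 2.90% and 4.60% in HRCS. Another, chr4:96363401-96363600, held 5 sites with levels of 0% and 0% in swim-up sperm against 1.11% and 0.833% in HRCS. By chromosome, the share of low windows ran from 8.39% on chromosome 11 to 15.9% on chromosome 13.

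The low windows had more CG sites beside them than the other CpG-poor windows. The CG sites of a table were listed whether or not a read covered them, so this count does not depend on capture or depth. The shares are a description with no test, since windows along the genome are not replicates. Windows with 6 or more listed CG sites within 400 bp flanked 4584 of the 6738 low windows (68.0%), and the rule capped such neighbours at 9 sites. The CG-richest window within 400 bp held 6 or 7 sites for 39.1% of the low windows and 8 or 9 for 28.9%. For the windows over 75% these shares were 20.6% and 6.73%. Where the CG-richest window within 400 bp held 8 or 9 sites, 29.8% of CpG-poor windows were low, and with 6 or 7 sites 17.5%. With 3 to 5 sites the share was 6.00%, and with 0 to 2 it was 1.40%. The same order was found in each library, with 29.3% to 30.4% low at 8 or 9 sites and 1.39% to 1.55% at 0 to 2.

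**Figure D2:**
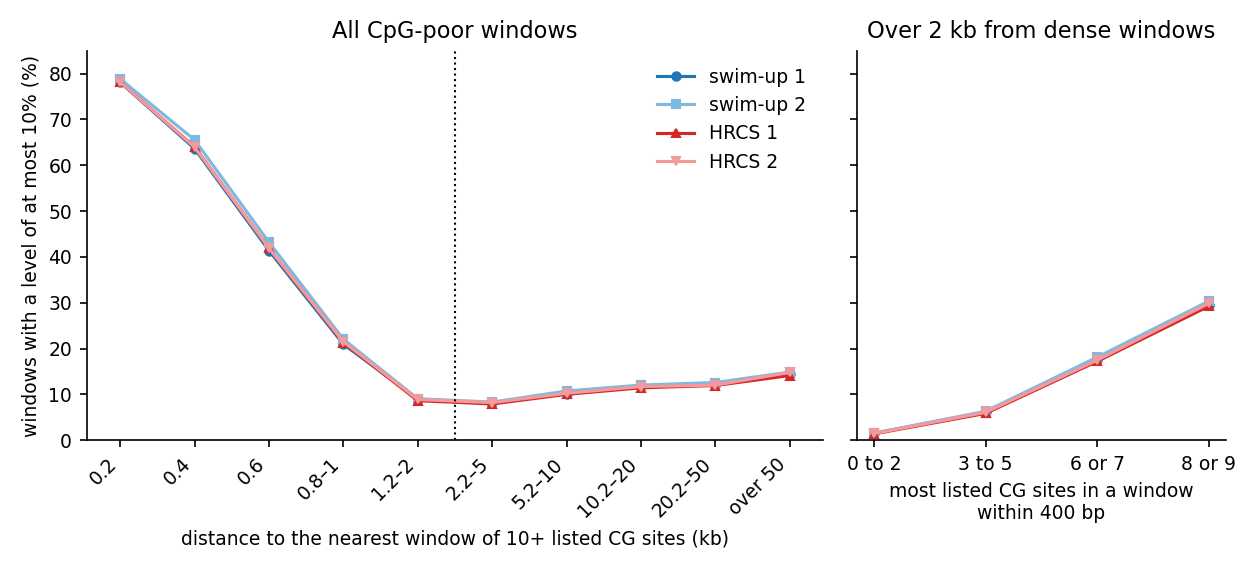
Share of CpG-poor windows with a level of at most 10% (y axis, %) in each of the 4 libraries, by distance to the nearest window of 10 or more listed CG sites in kb (left, dotted line at 2 kb) and, for windows over 2 kb away, by the most CG sites listed in any window within 400 bp (right). The libraries lie on top of each other, and the share falls from 78.7% to 8.06% and then rises to 14.5% with distance, while it climbs from 1.40% to 29.8% with the CG sites of the neighbours.

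The windows' own CG content moved the share in the same direction. It was 6.87% with 3 listed sites, 10.9% with 4 and 16.6% with 5. Within each of these classes the share also went with the CG sites of the neighbours. With 3 sites, the share was 3.24% without and 15.4% with a neighbour of 6 to 9 sites within 400 bp. With 5 sites it was 8.85% and 27.7%. CpG-poor windows without any window of 6 or more sites within 2 kb still included 921 low windows (4.92% of 18737), with a median level of 3.53%.

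The CG-richer neighbours were themselves low. Of the 3708 low windows with a measured window of 6 to 9 sites within 400 bp, 3492 (94.2%) had at least 1 such neighbour with a level of at most 10%, and 10 had one over 75%. For the windows over 75%, 20 of 8533 had a low neighbour of this kind (0.234%) and 95.5% one over 75%. In all, 29.3% of the 23896 windows of 6 to 9 sites away from dense windows were at or below 10%. Many of the low CpG-poor windows therefore lay in or beside a modest rise in CG density that did not reach 10 sites per 200 bp.

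The profile of CG sites around the windows showed this rise directly. Listed CG sites per 200 bp numbered 4.15 in the low window itself, 4.28 and 4.33 in the windows on either side, 2.29 and 2.39 at 1000 bp and 2.08 and 2.11 at 2000 bp. Around the windows over 75% the numbers were 3.81 in the window, 2.69 and 2.72 beside it, and 2.32 at 2000 bp. The median count within 1 kb on both sides, the window included, was 35 sites for the low windows and 28 for those over 75%. The median spacing of CG sites within a window was much the same in both sets. It was 29 bp (quartiles 13 and 53) in the low windows and 30 bp (14 and 56) in those over 75%.

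Methylation was higher with distance on both sides of the low windows, up to about 1600 bp. The mean level of CG sites was 3.53% in the window, 5.47% and 5.10% at 200 bp, 8.63% and 7.89% at 400 bp and 13.8% and 12.8% at 600 bp. It reached 31.3% and 30.9% at 1000 bp and 55.1% and 51.9% at 1600 bp. At 2000 bp it was 51.6% and 53.4%, lower than at 1600 bp on the left side in all 4 libraries. The libraries were read at the same sites, so their agreement does not repeat this fall. For both sets of windows the rule allowed dense windows just beyond 2 kb. Their part in the levels near 2000 bp was not tested. Around the windows over 75% the mean fell from 94.8% to 69.0% and 66.2% at 2000 bp. In each library the curve was the same to within 1 percentage point. The sites behind the curve became fewer with distance, from 25952 in the windows to 1442 and 1430 at 2000 bp.

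**Figure D3:**
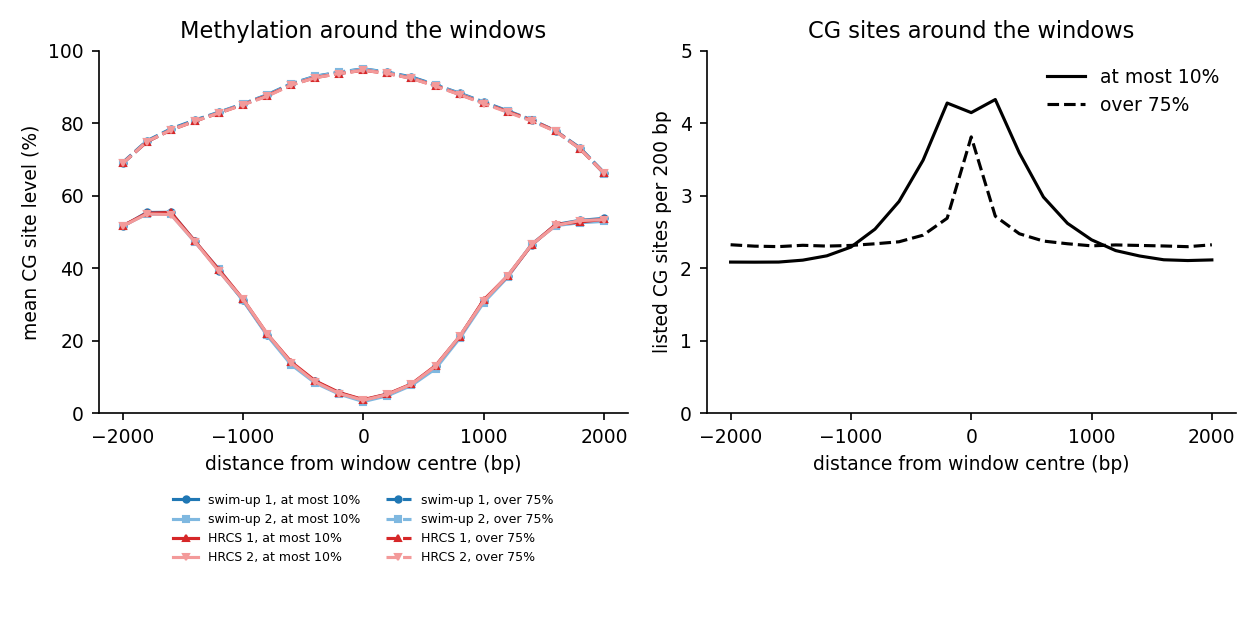
Left, mean level of CG sites with 10 or more reads in every library (y axis, %) against distance from the window centre in bins of 200 bp (x axis, bp), for the low windows (solid) and the windows over 75% (dashed), 1 line per library. Right, listed CG sites per 200 bp around the same windows, which peak at 4.15 to 4.33 over the central 600 bp around the low windows and at 3.81 in the single central bin around the others.

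Low windows with a measured adjacent window, of any CG content, mostly had a low one beside them. That adjacent window need not belong to the set. Of the 6738 windows, 2855 had no other window of the set within 2 kb. An adjacent window was measured for 5414 of the 6738, and in 4973 of these (91.9%) at least 1 adjacent window was at or below 10%. Both adjacent windows were measured for 1628, and both were low in 1166 (71.6%). An adjacent window over 75% was found for 10 low windows. For the windows over 75% the reverse held, with a low adjacent window in 9 of 23649.

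Among low windows with both adjacent windows measured, a single low window between methylated neighbours was rare. Both were measured for 1628 of the 6738. A low window with fewer than 3 CG sites in an adjacent window could not enter this count. At chr5:113147801-113148000 both adjacent windows exceeded 75%, with levels of 88.7% and 95.7%, and this was the only such case among the 1628. Its levels were 1.75% and 5.32% in swim-up sperm against 7.02% and 1.55% in HRCS, over 3 CG sites that spanned 50 bp. The first of these sites, at position 113147824, had 0 methylated of 18 reads and 1 of 29 in swim-up sperm against 2 of 55 and 0 of 45 in HRCS.

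The other windows with the largest gap to the lower of their adjacent windows had smaller gaps. At chr8:90409001-90409200 the adjacent levels were 66.4% and 71.1%, and the window had 1.45% and 4.26% in swim-up sperm against 11.8% and 2.68% in HRCS. At chr5:121148801-121149000 they were 48.1% and 62.4%, with 6.49% and 6.38% in swim-up sperm against 7.49% and 2.63% in HRCS. The gaps at chr4:152563601-152563800 and chr5:102263001-102263200 were 33.4 and 32.7 percentage points. Single libraries of these windows reached at most 11.8%, in HRCS replicate 1 at chr8:90409001.

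The length of the unmethylated DNA was traced through consecutive CG sites with 10 or more reads in every library, with a level of at most 25% and no gap over 1000 bp between sites. The low windows lay in 4514 such runs, with a median length of 506.5 bp and quartiles of 314 and 767 bp. A run was closed by a methylated site on both sides in 430 cases (9.53%), and their median length was 600.5 bp. The others ended at a gap without measured sites on at least 1 side, and CG sites with fewer reads inside a run were passed over, so the lengths are those of the measured sites. Runs over 1000 bp numbered 574 (12.7%).

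A run reached a dense window in 12 of the 4514 cases (0.266%), and these runs held 17 of the low windows. The 5 longest runs were among them. The count depends on coverage, since 2526 of all runs (56.0%) were closed by a methylated site on no side. It also depends on the rule, which kept dense windows over 2 kb from a low window, while the median run was 506.5 bp. The longest one through a low window was 6526 bp at chr5:125890001-125890200, which had levels of 3.22% and 1.31% in swim-up sperm against 2.997% and 4.10% in HRCS. It held 199 listed CG sites, of which 110 were measured, and overlapped 3 dense windows, the nearest 3600 bp from the low window. The second, 6276 bp at chr7:117769201-117769400, was closed on both sides, with levels of 4.08% and 0% in swim-up sperm against 0.694% and 0% in HRCS. It overlapped 4 dense windows, the nearest 2400 bp away.

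Low windows also came in short stretches. With members no more than 2 kb apart joined, the 6738 windows formed 4464 stretches, of which 2855 held 1 window, 1134 held 2, 475 held 3 or more and 36 held 5 or more. The stretch with most windows was chr13:38056001-38058200 with 8, whose mean level was 5.45% and 6.55% in swim-up sperm against 4.38% and 6.61% in HRCS. One further measured window within it exceeded 10%, with none above 25%.

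The other 4 of the 5 stretches with most windows held 7 each. In chr2:71588201-71590000 the mean level was 1.67% and 0.825% in swim-up sperm against 1.91% and 2.06% in HRCS. In chr11:81425401-81427600 it was 2.78% and 1.62% in swim-up sperm against 1.46% and 2.03% in HRCS. In chr8:12438401-12440200 and chr13:54548201-54550000 the means over the 4 libraries were 4.69% and 4.05%. Every measured window inside these 4 stretches, 31 in all, was at or below 10%.

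**Figure D4:**
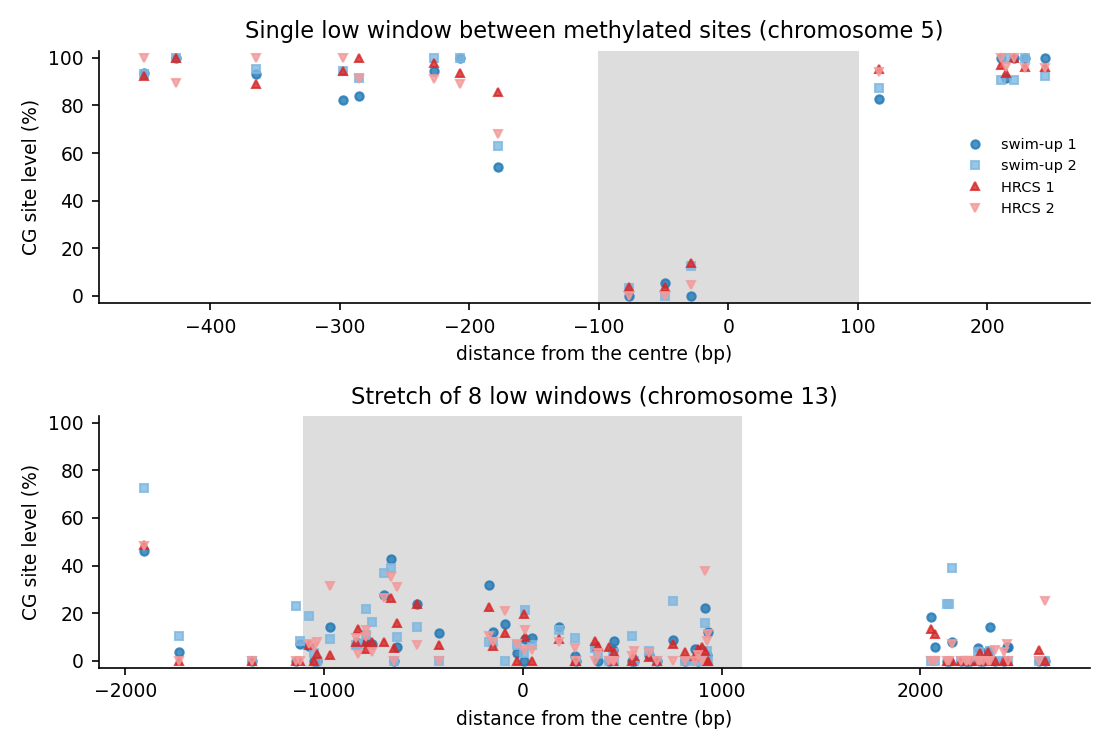
Level of single CG sites with 10 or more reads in every library (y axis, %) against distance from the centre (x axis, bp) in the 4 libraries, for the single low window on chromosome 5 (top) and the stretch of 8 low windows on chromosome 13 (bottom), both shaded. The 3 sites of the single window lie at 13.6% or less in every library between sites mostly over 80%, and most sites of the stretch are low over 2200 bp.

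Between the fractions, the low windows did not differ beyond the spread between libraries. The rule averaged the libraries of both fractions. A mean of at most 10% limits the difference a window can show, here and in the window-by-window values below. The mean level was 3.66% ± 0.126 in HRCS and 3.42% ± 0.310 in swim-up sperm (SD, n = 2 each), a difference of 0.243 percentage points (two-sided exact permutation test, p = 0.667, with 0.33 the smallest p that 2 against 2 libraries allow). The sign rested on swim-up replicate 2: with the rule applied without that library the difference was -0.0116. In the windows over 75% the difference was -0.359 (94.62% ± 0.0145 in HRCS and 94.97% ± 0.0331 in swim-up sperm, SD, n = 2 each, exact permutation test, p = 0.33, the smallest value possible, with no overlap between the libraries of the fractions), and over all measured autosomal windows it was 0.0495 (p = 1, same exact test). Low windows of other kinds had smaller differences of the same sign, 0.135 percentage points in CpG-poor windows near dense ones, 0.185 in windows of 6 to 9 sites away from them and 0.0925 in dense windows, each cut at 10%. The part that a shift common to all low windows has in the difference was not tested.

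Window by window, none of the 6738 passed edgeR's quasi-likelihood test between HRCS and swim-up sperm at an adjusted p under 0.05, while 7 of all 231489 measured windows did (0.00302%). At an unadjusted p under 0.05 there were 337 windows (5.00%), of which 197 were higher in HRCS and 140 lower, and 4.48% of all measured windows did so. With limma on the logit of the calls, 0 low windows passed the adjusted threshold, as did 0% of all windows, and 473 the unadjusted one (7.02%, against 5.53% of all windows). Both HRCS libraries lay above both swim-up libraries in 1281 windows (19.01%, against 17.3% of all measured windows) and below them in 871 (12.9%, against 15.8%).

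Differences between the fractions were of the size seen between replicates. The mean of the fractions differed by over 5 percentage points in 384 windows and by over 10 in 18. Between single libraries, 12.3% of the windows differed by over 5 percentage points between the HRCS replicates and 15.2% between the swim-up replicates. Between an HRCS and a swim-up library the share was 12.6% to 14.0%.

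**Figure D5:**
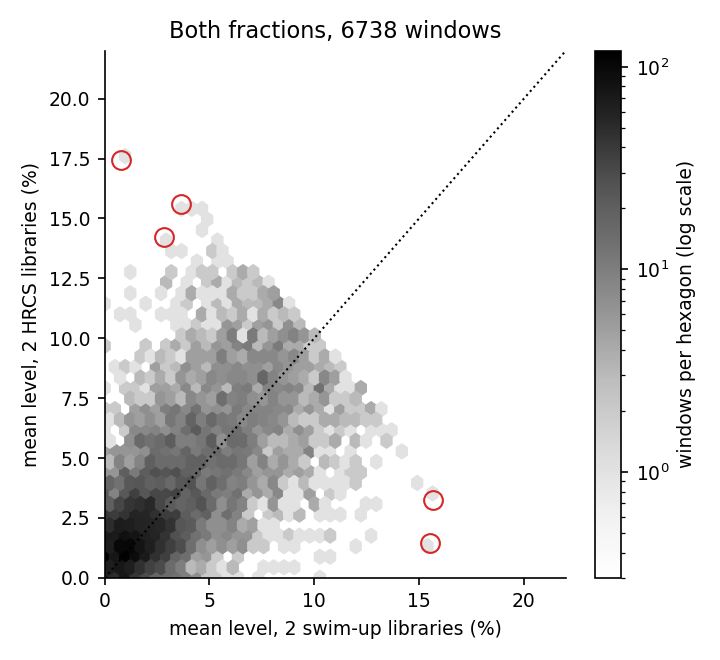
Mean level of the 6738 low windows in the 2 HRCS libraries (y axis, %) against that in the 2 swim-up libraries (x axis, %), with darker hexagons holding more windows on a log scale and the dotted line marking equal levels. Circles mark the 5 windows with the largest difference among those whose libraries did not overlap between fractions, which differed by 11.4 to 16.7 percentage points.

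The window with the largest difference among those with libraries that did not overlap was chr12:27218201-27218400, with levels of 1.52% and 0% in swim-up sperm against 15.4% and 19.5% in HRCS (difference 16.7 percentage points, edgeR's quasi-likelihood test, unadjusted p = 0.000673, adjusted p = 1). At its first site, position 27218247, 1 of 22 and 0 of 15 reads were methylated in swim-up sperm against 6 of 33 and 5 of 27 in HRCS. Only 3 of its 5 listed sites qualified. At the unused position 27218337 the counts were 2 of 14 and 2 of 7 in swim-up sperm against 7 of 18 and 3 of 9 in HRCS. At the unused position 27218350 they were 2 of 12 and 1 of 7 against 9 of 17 and 0 of 7. With 5 reads per site the difference was 15.2 percentage points. The level of a window such as this rested on few methylated reads.

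In chr13:67845201-67845400 the levels were 8.33% and 22.7% in swim-up sperm against 2.90% and 0% in HRCS. In chr16:85677001-85677200 they were 11.1% and 20.2% in swim-up sperm against 4.44% and 2.08% in HRCS. HRCS minus swim-up sperm was -14.1 and -12.4 percentage points, and the size rested on swim-up replicate 2 and on the read minimum. Without that library the differences were -4.59 and -7.85, and with 5 reads per site they were -8.83 and -4.31. In the first, it was -21.3 without swim-up replicate 1. Position 67845229 carried most of the difference in the first, with 3 of 12 and 5 of 10 methylated reads in swim-up sperm against 2 of 23 and 0 of 12 in HRCS.

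The remaining pair was higher in HRCS. In chr6:51158001-51158200 the levels were 5.09% and 2.203% in swim-up sperm against 26.0% and 5.22% in HRCS, a difference of 11.96 percentage points. It was 1.57 without HRCS replicate 1 and 22.4 without HRCS replicate 2. In chr5:144096001-144096200 they were 5.65% and 0% in swim-up sperm against 16.1% and 12.4% in HRCS, with 10.3 reads per site in HRCS replicate 1. The adjusted p of edgeR's test was 1 for all 5 windows. The highest single value was 26.0%. A mean of at most 10% over the 4 libraries bars a high level in either fraction, so this follows from the rule.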

How the data were processed

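DNA methylation was measured by TGBS in 2 libraries of swim-up sperm and 2 of HRCS. Per the labels, 300 ng of DNA was captured with SureSelect Mouse Methyl-Seq, tagged after bisulfite treatment and read in 100 cycles from 1 end. The authors used Bmap and mm9 for mapping, and the deposited tables hold whole-number counts, without normalization or column names, of methylated and of all reads on either strand of each CG site. The lower count was read as methylated, because dense windows are then the unmethylated ones. No removal of duplicates or check of conversion is given in the sources used here.

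Strands were added, and windows of 200 bp were counted from position 1. Coordinates are 1-based on mm9. The genome used here for reference was of another build, so no sequence or gene is given for a window. Windows and lists were chosen with earlier results of these data known. Named windows were the 5 largest by stretch, depth, gap to adjacent windows, run length, distance to a dense window and fraction difference, and the 3 on either side of the limit.

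edgeR 4.0.16 in R 4.3.3 was fitted to methylated and unmethylated calls of all 231489 measured windows, with a term per library, one for methylated calls and one for methylated calls in HRCS, 1 dispersion and Benjamini-Hochberg adjustment over all windows. limma 3.58.1 was an alternative. Mean levels were compared by exact tests over libraries. The window rule and the fits were tested on simulated data. Python 3.11.15 was used otherwise. At 10 reads, 1 read moves a site by 10 percentage points.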

Additional observations from a re-analysis of the deposited data

How the results depend on the processing

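With 5 reads per site the share of low windows among CpG-poor windows away from dense windows was 9.84%, and with 20 reads it was 12.2%, the number of low windows then being 2554. It was 10.2% where every listed site had to qualify, 11.6% and 10.5% with dense windows kept 5 kb and 1 kb away, 8.35% (3773 windows) with dense windows defined from 8 sites and 7.87% with a level limit of 5%. It was 5.27% where no window of 6 or more sites lay within 400 bp, an alternative added after the data were seen. With 20 reads per site, 1550 of the 1668 low windows with a measured adjacent window had a low one (92.9%), and 1780 of the 2554 low windows had a neighbour of 6 to 9 sites (69.7%). With 5 reads, 90.9% were low in the library left out.

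The difference between fractions ranged from -0.0116 to 0.494 percentage points when each library was left out, negative only without swim-up replicate 2. With the replicate number as a block it was 0.243, from differences of 0.113 and 0.372 within the numbers, and edgeR with the replicate block called 0 low windows (10 of all measured windows) at the adjusted threshold and 255 at the unadjusted one (3.78%, against 3.54% of all measured windows). Libraries with the same number did not deviate together (r = -0.00486 across 40668 windows of 10 to 90%), so the numbers were not taken as pairs. No low window passed the adjusted threshold under any of the 17 settings that gave a count of calls, but only 0 to 16 of all measured windows did, so this says nothing particular about the low windows. Of these settings, those that changed only the choice of low windows reused the main fit, so their counts were not separate tests. The level of the unused sites and the depth kept their direction wherever they were computed. The difference in depth from the windows over 75%, 1.12 reads per site, was 1.83 where every listed site had to qualify and 0.738 with dense windows from 8 sites. Windows with every listed site qualifying have no unused sites.

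Low windows had a median of 87 to 117 calls per library. The smallest difference detectable in a single window was not determined.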

Other observations

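The X chromosome was outside the rule. Of its 270 CpG-poor windows away from dense windows, 75 (27.8%) had a level of at most 10% and 125 (46.3%) a level over 75%, with 27.0% and 28.9% low in swim-up sperm against 26.7% and 27.8% in HRCS. The autosomes ranged from 8.39% to 15.9% by the same count, with 1840 to 5470 such windows each. The share on the autosomes also moved with the read minimum, and the part that coverage has in the difference from the X chromosome was not tested.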
